A study of Mus musculus with 12 samples.

Results

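The 8 RNAseq libraries made from tibialis anterior (TA) muscle at E18.5, late in embryonic life, and at 2 wks of age were compared across all genes with enough counts, out of 12 libraries in the series. The TA, which lifts the foot and consists mainly of fast fibers, was taken from WT mice of the 129Pas background, with 4 mice and 4 libraries at each age. At 2 wks the pups still suckle. The remaining 4 libraries, from 7 wks, were not compared. They entered the gene filter, the normalization and the statistical fit, where they added to the estimate of the spread between mice. Counts were available for 55450 genes and 19276 were tested, of which 1240 belong to 53 lists of pathways, gene families and cell type markers described below. These lists name 1258 distinct genes of the table, and the members without enough counts were not tested.

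Around birth, skeletal muscle goes from slow, weakly loaded fetal movement to breathing, suckling and bearing weight. Fetal fibers carry isoforms of contractile and metabolic proteins that also occur in heart, slow muscle or non-muscle cells, and fast fibers replace many of them with isoforms of their own. Growth before birth also relies on imprinted genes, which are expressed from the allele of a single parent, and on fetal RNA-binding proteins that are silenced later. RNA was extracted from whole pieces of muscle, so that a lower level can mean fewer cells of a type or less RNA per cell, and these cannot be told apart.

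Levels are given as CPM, counts scaled to a common library size, after TMM normalization, which corrects for a few genes taking up a large share of a library, and in the order of replicates 1 to 4. Changes are log2 fold changes of 2 wks over E18.5 with their standard errors, tested with edgeR's quasi-likelihood test and adjusted by the Benjamini-Hochberg method. The libraries held 63018968 to 123449246 counts. Skeletal actin *Acta1*, a defining marker of muscle, was abundant in all 8 libraries, at 1811 to 6942 CPM at E18.5 and 42300 to 61450 CPM at 2 wks. Some libraries stood apart from others of their age. E18.5 replicates 3 and 4 held adipocyte RNA, with *Adipoq*, which encodes the fat hormone adiponectin, at 213 and 184 CPM against 6.38 and 7.75 in replicates 1 and 2, and *Ucp1* of brown fat at 224 and 923 against 0.305 and 0. E18.5 replicate 2 held the most cartilage and skin RNA, with cartilage collagen *Col2a1* at 73.0 CPM against 2.78 to 7.38 in the others. At 2 wks, replicate 1 held the most RNA of Schwann cell markers, and replicates 3 and 4 held the most *Mb* and *Tcap* (below).

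Of the 19276 genes, 12668 (65.7%) passed the threshold, 6074 (31.5%) of them higher at 2 wks and 6594 (34.2%) lower. The balance of directions depended on scaling. The 20 most abundant genes of each library held 13.7% to 16.1% of its counts at E18.5 and 33.2% to 35.6% at 2 wks. The part of these genes in the dependence was not tested. When libraries were scaled to their total counts, 2552 genes (13.2%) were higher and 11917 (61.8%) lower, and the median of all genes moved from -0.09 to -1.02. With the trend of each library over transcript GC content removed, 33.3% were higher and 31.0% lower. For 28.9% of genes every library of 2 wks lay above every library of E18.5, and for 32.4% every library lay below. The counts of each list are to be read against these shares, and the count under total scaling stands beside each. Under all 4 of TMM, total scaling, GC correction and the same correction for transcript length, 2530 genes rose and 4584 fell. Changes were large, as 1725 genes rose and 1934 fell by more than 4-fold, and 127 rose and 251 fell by more than 32-fold.

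The gene with the largest rise among abundant protein-coding genes was *Mb*, which encodes the oxygen store myoglobin. It stood at 7.19, 13.1, 18.1 and 21.2 CPM at E18.5 and at 655, 826, 4087 and 6384 CPM at 2 wks (log2 fold change 7.65 ± 0.79, edgeR adjusted p = 2.83e-06). The ages did not overlap, but replicates 3 and 4 lay far above replicates 1 and 2 at 2 wks. The coding gene *Apol6* overlaps *Mb*, so reads may be shared. *Pvalb*, the calcium buffer parvalbumin of fast fibers, went from 75.2, 89.6, 32.5 and 82.8 CPM to 16532, 16289, 13493 and 8110 CPM (7.60 ± 0.41, edgeR adjusted p = 1.2e-08), and was lowest in replicate 4 of 2 wks, with no overlap of the ages. The Z-disc protein gene *Tcap* (telethonin) rose from 13.8 to 35.0 CPM at E18.5 to 563, 553, 1508 and 2491 CPM (5.91 ± 0.60), again highest in replicates 3 and 4. *Scn4b*, for a beta subunit of the sodium channel, the potassium channel gene *Kcnc4*, *Ucp3* of the inner mitochondrial membrane, and *Rpl3l*, a striated muscle form of ribosomal protein L3, also stood among the 12 largest rises. For *Rpl3l* the levels were 13.0, 16.1, 8.20 and 15 CPM against 626, 603, 492 and 635 CPM (5.49 ± 0.30), while its widely expressed paralogue *Rpl3* fell by 1.69 on the log2 scale.

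By the same criteria the largest fall was that of *Peg10*, a retrotransposon-derived imprinted gene, from 881, 582, 409 and 453 CPM to 6.31, 5.76, 4.37 and 3.28 CPM (-6.88 ± 0.36, edgeR adjusted p = 9.98e-09). *Agtr2*, the angiotensin II receptor type 2, went from 660, 407, 441 and 319 CPM to 7.58, 7.86, 2.22 and 2.14 CPM (-6.53 ± 0.56). *Sln*, which encodes the SERCA inhibitor sarcolipin, fell from between 438 and 582 CPM to 13.7, 11.2, 4.40 and 3.50 CPM (-5.95 ± 0.44). In each of these genes the levels at 2 wks were lower in replicates 3 and 4 than in replicates 1 and 2. *Cpa3*, a mast cell protease, *Nrk*, *Arhgap36*, *Capn6*, *AW551984*, the zinc-finger gene *Plagl1*, the proteoglycan gene *Vcan* and *Col12a1* followed with falls of 4.20 to 6.09 on the log2 scale. *Atp1b4*, a member of the ATPase beta subunit family that is known as a nuclear protein of perinatal muscle, fell from 807 to 2293 CPM to 65.0 to 106 CPM (-4.07 ± 0.41).

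**Figure D1:**
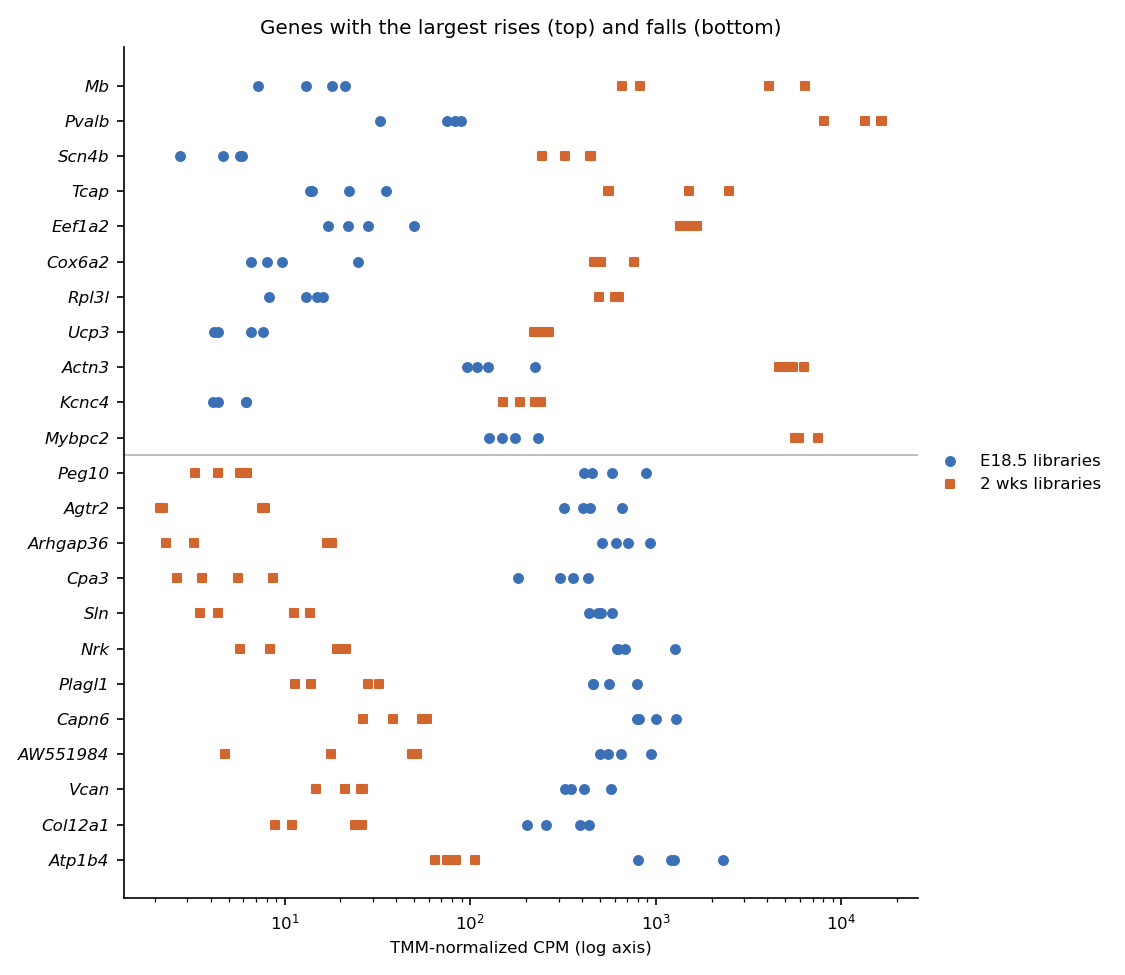
TMM-normalized CPM on a log axis of 11 of the genes with the 12 largest rises (top) and of the genes with the 12 largest falls (bottom), with a point for each E18.5 library (blue) and each 2 wks library (orange). The ages do not overlap for any of the 23 genes drawn, which the rule for choosing them required, and *Mb* and *Tcap* spread most among the rises at 2 wks.

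Isoform switches were examined as the log2 ratio of counts of a late over an early gene within each library, a measure that does not depend on the scaling between libraries. Of 30 pairs of paralogous genes, 29 shifted toward the late gene with no overlap between the ages. Under TMM the late gene rose in all 30 pairs, although *Ezh1* fell under total scaling and *Lmna* did not rise with the GC trend removed. The early gene fell in 16 pairs, rose less in 2 and did not pass the test in 12. The pairs were chosen as known or likely switches with earlier results of these data known, so that the direction of a shift is no independent evidence.

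The largest shift was between the alpha-tubulins *Tuba1a* and *Tuba8*, building blocks of microtubules. Their log2 ratio was -8.65, -7.41, -7.66 and -7.22 at E18.5 and 1.53, 1.92, 2.39 and 2.89 at 2 wks, a change of 9.92, with *Tuba8* rising by 8.35 and *Tuba1a* falling (-1.52). The translation elongation factor genes *Eef1a1* and *Eef1a2* shifted by 8.01. *Eef1a1* fell from 4565, 4753, 5663 and 5163 CPM to 1359, 1361, 930 and 772 CPM (-2.19 ± 0.21), while *Eef1a2* rose from 17.2, 49.7, 22 and 28.3 CPM to 1346, 1528, 1415 and 1672 CPM (5.67 ± 0.34). Both genes moved in every library of 2 wks. Among contractile proteins, troponin T (*Tnnt2* to *Tnnt3*), troponin C (*Tnnc1* to *Tnnc2*) and troponin I (*Tnni1* to *Tnni2*) shifted by 6.37, 6.09 and 5.79, and actin (*Actc1* to *Acta1*) by 2.94.

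Shifts of a similar size ran through energy metabolism. The fatty acid carriers *Fabp5* and *Fabp3* shifted by 6.09, the phosphoglycerate mutases *Pgam1* and *Pgam2* by 5.64, the cytochrome oxidase subunits *Cox6a1* and *Cox6a2* by 5.55 and *Cox8a* and *Cox8b* by 4.91. Smaller shifts were seen for glycogen phosphorylase (*Pygb* to *Pygm*, 4.53), phosphofructokinase (*Pfkp* to *Pfkm*, 4.40), the adenine nucleotide carrier (*Slc25a5* to *Slc25a4*, 3.91) and the glucose transporter (*Slc2a1* to *Slc2a4*, 3.33). The lactate dehydrogenases *Ldhb* and *Ldha* shifted by only 1.43, and both genes rose under TMM (*Ldhb* was at -0.06 under total scaling). Hexokinase was the pair whose ages overlapped, with ratios of *Hk2* over *Hk1* of 2.41, 1.79, 1.99 and 2.87 at E18.5 and 2.32, 2.70, 3.42 and 4.01 at 2 wks. Outside metabolism, the polycomb methyltransferases *Ezh2* and *Ezh1* shifted by 2.27 and the nuclear lamins *Lmnb1* and *Lmna* by 2.53. The counting may split reads between *Cox6a1* and its pseudogenes, the coding gene *Itgad* overlaps *Cox6a2*, and *Cpt1b* overlaps a readthrough gene, so the values of these genes are uncertain.

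**Figure D2:**
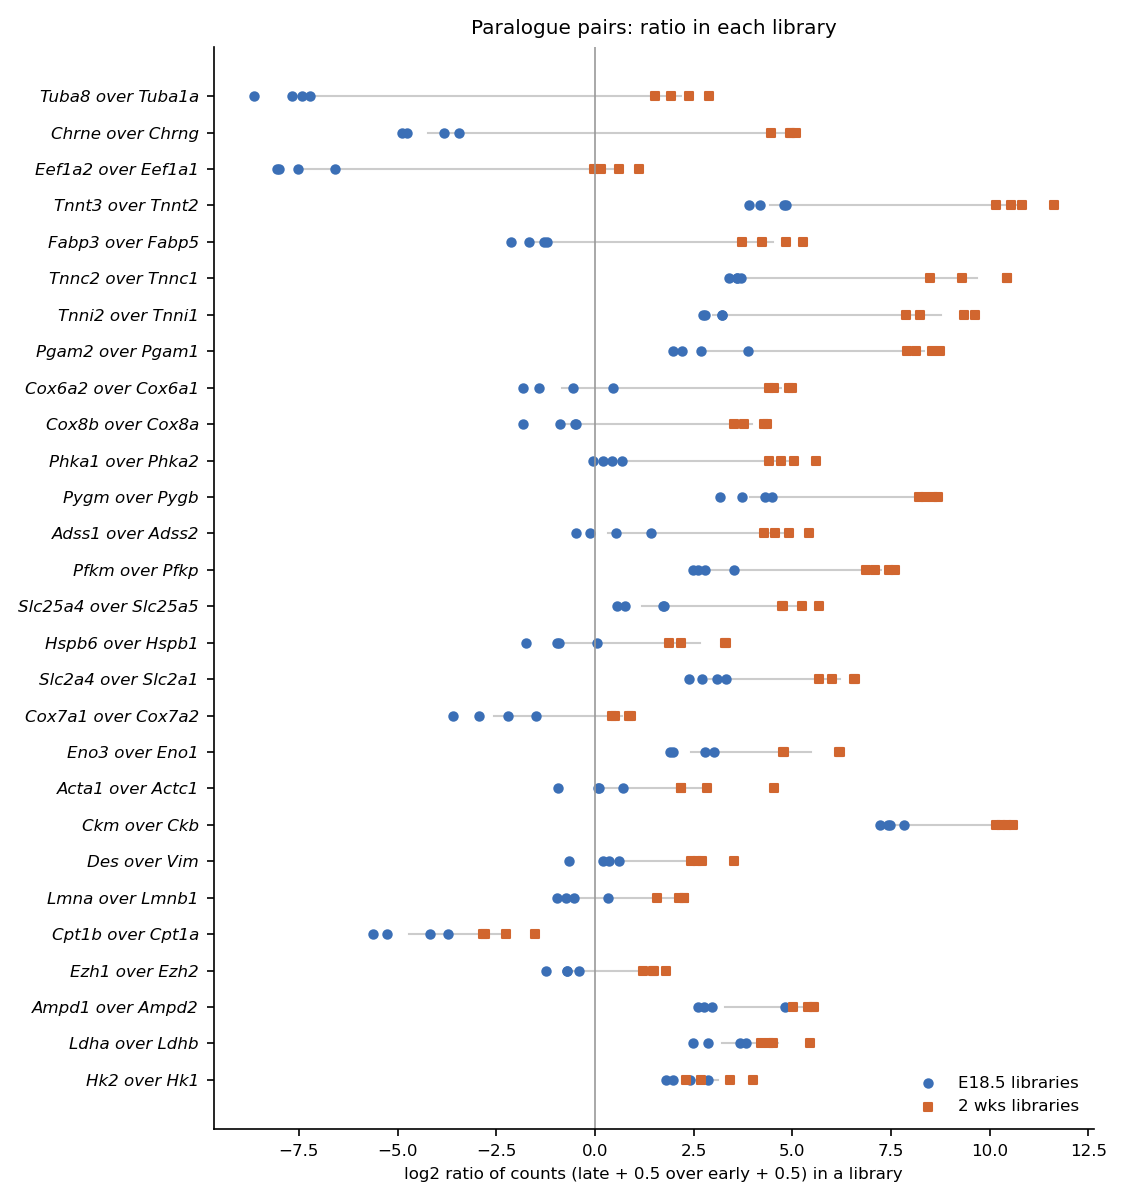
Log2 ratio of the counts of the late over the early gene in each library (x axis) for 28 of the 30 pairs of paralogues (y axis), with E18.5 libraries as blue circles and 2 wks libraries as orange squares joined by a grey line between the age means. The ages are separate in 27 of the pairs drawn and overlap in the pair of *Hk1* and *Hk2*, and the change is 9.92 for *Tuba8* over *Tuba1a*.

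The genes of oxidative phosphorylation, whose complexes pass electrons from NADH and succinate to oxygen and make ATP, were higher at 2 wks nearly without exception. Of 36 subunits of complex I, 35 rose (34 under total scaling, where 1 fell), with a median of 2.33. All 39 nuclear-encoded subunits of complexes II to V rose (33 under total scaling), with a median of 2.12. *Ndufs7* of complex I went from 4.02, 19.1, 12 and 16.3 CPM to 245, 227, 226 and 371 CPM (4.38 ± 0.50), and *Uqcrq* of complex III from 6.06, 16.6, 10.1 and 16.2 CPM to 292, 264, 270 and 498 CPM (4.76 ± 0.48). E18.5 replicate 1 was the lowest and 2 wks replicate 4 the highest for both. The exception in complex I was *Ndufb2*, at 5.41 to 7.37 CPM and 6.45 to 11.0 CPM (0.38 ± 0.20, edgeR adjusted p = 0.0996).

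The enzymes that feed these complexes moved less evenly. In the list of the TCA cycle and pyruvate entry, 23 of 30 genes rose and 3 fell (13 and 7 under total scaling, 5 falling with the GC trend removed). The malate dehydrogenase *Mdh2* rose most (3.04 ± 0.28), and the pyruvate dehydrogenase kinases, which inhibit the entry of pyruvate, moved in opposite directions, with rises of *Pdk2* (2.86) and *Pdk4* (2.69) and falls of *Pdk1* (-1.03) and *Pdk3* (-2.36). *Pdk4* stood at 65.5, 34.8, 66.7 and 328 CPM at E18.5 and 468, 1107, 715 and 907 CPM at 2 wks. Of 33 genes of fatty acid uptake and oxidation, 18 rose and 1 fell (9 and 3 under total scaling), and the rises were led by *Ucp3*, *Fabp3* and *Mlycd*, which encodes malonyl-CoA decarboxylase. Without E18.5 replicates 3 and 4, which held adipocyte RNA, 31 of the 33 rose. The summed level of this list was 2162, 1902, 5160 and 8721 CPM at E18.5 and 6799 to 9252 CPM at 2 wks. Without E18.5 replicate 2, 2 members fell instead of 1. The lipid-sensing nuclear receptor gene *Ppara* was the member that fell (-2.92 ± 0.66), from 11.1, 9.46, 29.98 and 76.8 CPM to 2.67 to 7.89 CPM. The 5 genes of ketone body use, which pups draw on during suckling, had a median of -0.02 and did not pass the test in edgeR or DESeq2, and 0 of them had an unadjusted p under 0.05 in edgeR. Under total scaling 3 of the 5 fell, and 2 fell without 2 wks replicates 3 and 4.

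Genes of glycolysis and of energy stores were mostly higher. Of 22 glycolytic genes, 16 rose and 4 fell (11 and 6 under total scaling), and their summed level went from 5052 to 10208 CPM to between 47146 and 71963 CPM. *Aldoa*, the muscle aldolase, stood at 746, 1712, 1155 and 1450 CPM and at 11842, 12824, 23275 and 21180 CPM (3.77 ± 0.34). The genes that fell, namely *Pgam1*, *Pfkl*, *Pfkp* and *Aldoc*, encode the isoforms of other tissues. In the glycogen list 13 of 19 rose and 5 fell (9 and 6 under total scaling). The subunits of phosphorylase kinase *Phkg1* (4.12) and *Phka1* (3.08) and the phosphorylase *Pygm* (3.04) rose, and the liver phosphorylase *Pygl* fell from 20.3 to 29.2 CPM to 2.46 to 4.34 CPM (-2.84 ± 0.27). Of 19 genes of the phosphocreatine and purine nucleotide cycles 10 rose and 2 fell (9 and 6 under total scaling). The mitochondrial and cytosolic creatine kinases *Ckmt2* (4.12 ± 0.34) and *Ckm* (3.86) rose, whereas *Gatm*, the enzyme that begins creatine synthesis, fell from 408, 319, 194 and 248 CPM to 66.1, 50.0, 27.7 and 17.2 CPM (-2.86 ± 0.38). The creatine transporter gene *Slc6a8* rose (1.53).

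**Figure D3:**
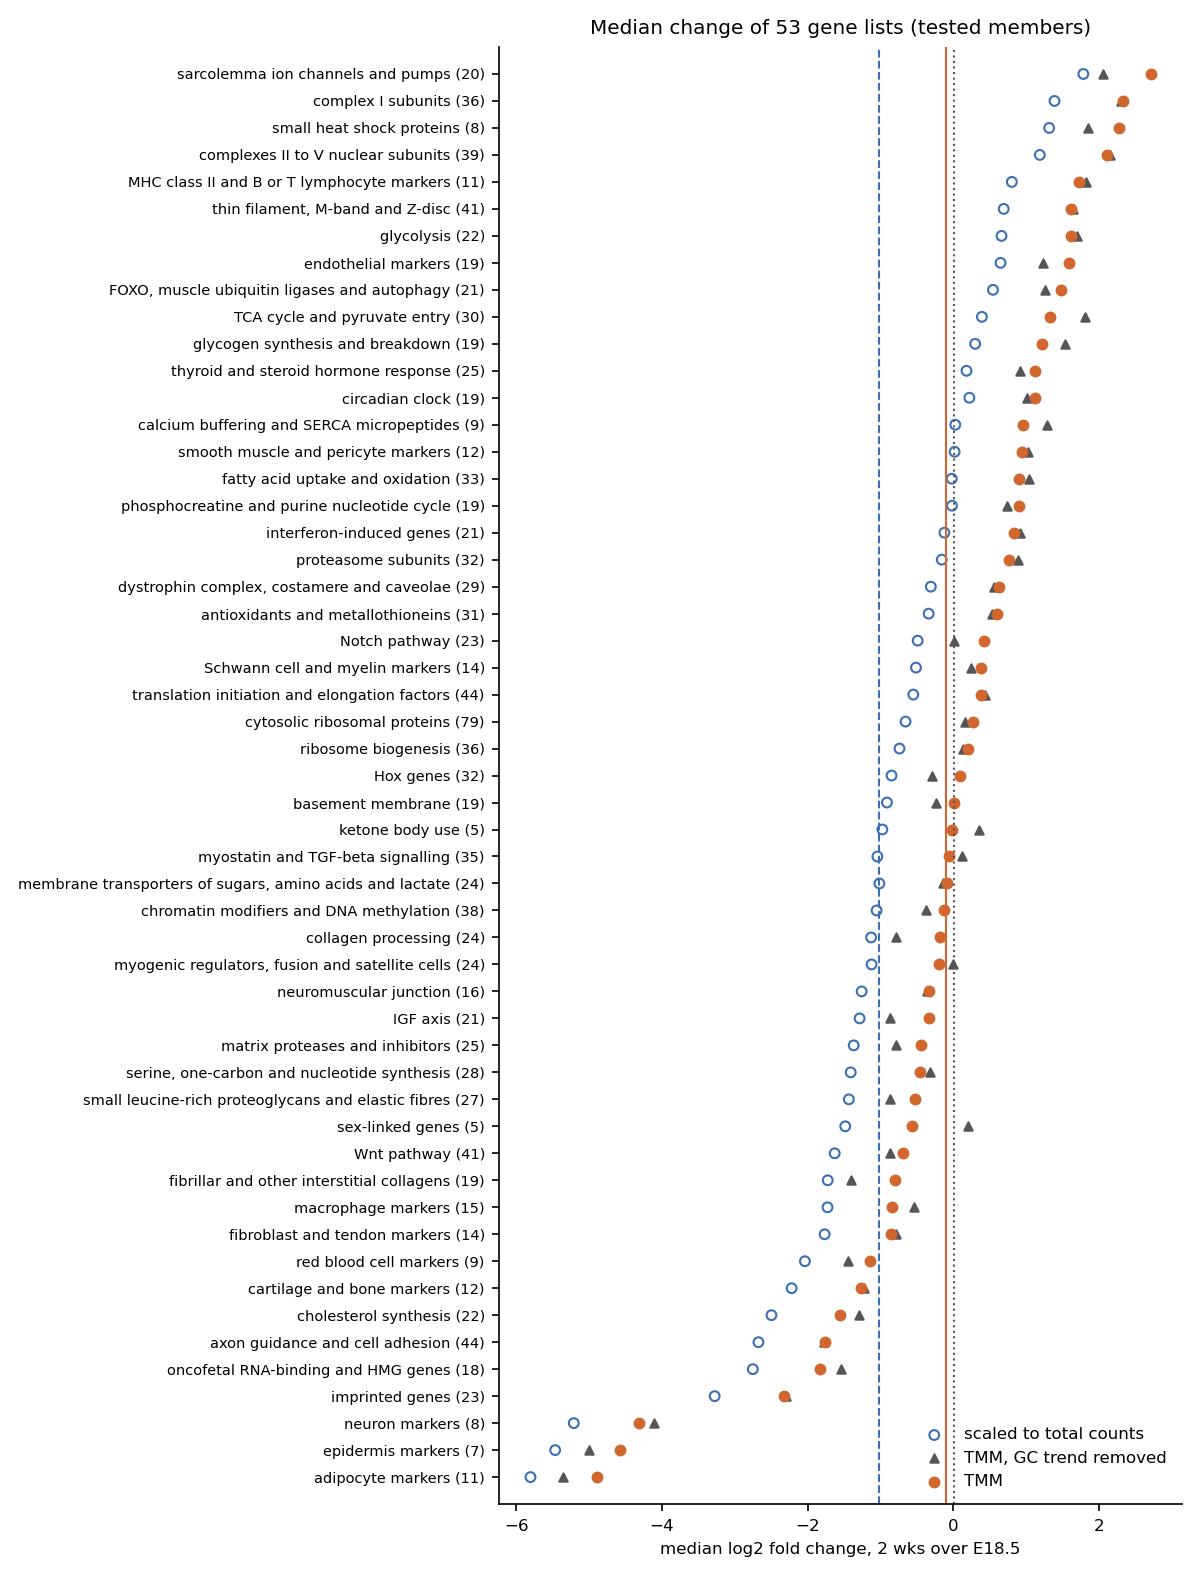
Median log2 fold change of the tested members of each of 53 gene lists (number tested in brackets) under TMM (filled orange), total scaling (open blue) and TMM with the GC trend removed (grey triangles), with vertical lines at the medians of all tested genes, -0.09, -1.02 and 0.01. Ion channels (2.72) and complex I (2.33) lie at the top, and imprinted genes (-2.33) and adipocyte markers (-4.89) near the bottom.

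Of 20 genes of sarcolemmal channels and pumps, which set the resting potential and carry the action potential, 15 rose and 4 fell (14 and 5 under total scaling), and their median of 2.72 was the highest of the 53 lists under TMM (2.05 with the GC trend removed, below complex I at 2.30). *Scn4b* stood at 4.68, 5.74, 2.73 and 5.87 CPM at E18.5 and at 244, 325, 446 and 442 CPM at 2 wks (6.26 ± 0.31), so that the ages lay far apart. The potassium channel gene *Kcna7* rose from 0.229 to 1.01 CPM to between 35.2 and 74.7 CPM (6.63 ± 0.47), and the chloride channel gene *Clcn1*, which stabilizes the resting membrane, from 18.1 to 29.2 CPM to 228 to 251 CPM (3.26 ± 0.17). The T-type calcium channel gene *Cacna1h* fell (-1.48).

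At the neuromuscular junction, acetylcholine receptors sit under the nerve ending. Of its 16 genes 5 rose and 6 fell (4 and 11 under total scaling), near the shares over all genes under TMM. The receptor exchanges its fetal gamma subunit for the epsilon subunit. *Chrng* fell from 25.9, 61.4, 44.6 and 27.1 CPM to 2.28, 2.13, 1.16 and 1.45 CPM (-4.50 ± 0.35), and *Chrne* rose from 1.84, 2.06, 1.63 and 2.47 CPM to 71.5, 65.5, 40.0 and 32.2 CPM (4.71 ± 0.26). Their log2 ratio moved from between -4.90 and -3.45 to between 4.47 and 5.09. The delta subunit gene *Chrnd*, which is part of both receptors, fell from 42.5 to 72.3 CPM to 7.33 to 10.9 CPM (-2.59 ± 0.21), as did the adhesion molecule gene *Ncam1* of developing and denervated fibers (-2.41 ± 0.16). *Dok7* (2.29), the acetylcholinesterase gene *Ache* (2.06) and *Rapsn* (1.75), which encodes the protein that clusters receptors, rose, and the kinase gene *Musk* fell (-1.08 ± 0.30).

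The promoters of these subunits are shown because motifs known for each gene lie in them. The sequences are from RefSeq on GRCm38.p6, and the 250 bases before the annotated start were searched on both strands. *Chrne*, at chr11:70619250-70619285 on the minus strand and 91 to 56 bases before the start, holds CCGGAA, the N-box bound by ETS factors of synaptic nuclei, in capitals. *Chrng*, at chr1:87205651-87205746 on the plus strand and 160 to 65 bases before the start, holds 3 E-boxes (CANNTG), the motif of the myogenic regulators, in capitals. The motifs do not overlap in these stretches. CCGGAA occurs in 12.2% and CANNTG in 66.0% of all 27025 promoters in windows of the same length, and in 20% and 58.3% of the promoters of tested coding genes, so that neither is rare. A match describes the sequence only.
Chrne: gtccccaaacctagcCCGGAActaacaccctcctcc
Chrng: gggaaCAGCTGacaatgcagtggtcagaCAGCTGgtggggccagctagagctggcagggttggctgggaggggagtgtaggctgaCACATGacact

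In the list of calcium buffers and small regulators of the SERCA pump, which returns calcium to the sarcoplasmic reticulum, 6 of 9 genes rose and 2 fell (4 and 3 under total scaling). Besides *Pvalb* and *Sln* described above, the reticulum protein gene *Hrc* rose (2.27). Phospholamban (*Pln*), known from heart and slow muscle, rose from 0.0927 to 0.347 CPM to between 3.48 and 5.17 CPM (4.56 ± 0.37) and so remained low.

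Of 41 genes of the thin filament, M-band and Z-disc, 29 rose and 6 fell (21 and 9 under total scaling), with a median of 1.62. Besides *Tcap*, the largest rises were those of *Actn3* (5.28), the alpha-actinin of fast fibers, and *Mybpc2* (5.18), the fast myosin-binding protein C. The reads of both genes may be shared with overlapping genes. The 6 genes that fell, *Tnnt2*, *Tnnc1*, *Tnni1*, *Tnnt1*, *Myom3* and *Tpm3*, belong to cardiac, slow or fetal muscle, with *Tnnt2* going from 102 to 184 CPM to between 6.11 and 15.5 CPM (-3.62 ± 0.33).

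The dystrophin complex, which links the cytoskeleton to the matrix, held members that moved in opposite directions. Of 29 genes of this complex, the costamere and caveolae, 14 rose and 4 fell (6 and 14 under total scaling). The syntrophin gene *Sntb1* fell from 155, 104, 101 and 93.0 CPM to 11.5, 8.76, 22.7 and 13.9 CPM (-2.99 ± 0.34). The muscle sarcoglycan gene *Sgca* rose (3.20 ± 0.24) and *Sgce*, which is widely expressed and imprinted, fell (-1.19). *Dmd* itself stood at means of 93.8 and 98.3 CPM and did not pass the test.

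Genes of protein quality control were mostly higher. Of 8 small heat shock protein genes and their partners, which keep contractile proteins from aggregating, 7 rose, also under total scaling. *Hspb6* went from 36.3, 34.1, 22 and 27.1 CPM to 279, 337, 962 and 1160 CPM (4.52 ± 0.46) and *Cryab*, alpha B-crystallin, from 79.9 to 190 CPM to 423, 471, 825 and 1017 CPM (2.43 ± 0.34), with replicates 3 and 4 highest at 2 wks in both. In the list of FOXO factors, muscle ubiquitin ligases and autophagy genes, 16 of 21 rose and 2 fell (11 and 7 under total scaling), or 1 fell without any of E18.5 replicates 3 and 4 and 2 wks replicates 1 to 3. The ligase genes known from muscle atrophy, *Trim63* (22.6 to 30.6 CPM against 142 to 164 CPM, 2.58 ± 0.16) and *Fbxo32* (8.63 to 15.03 CPM against 40.7 to 83.8 CPM, 2.36 ± 0.27), were among the genes that rose, as were *Fbxo40* (4.16) and the lysosomal regulator *Tfeb* (3.64). Of 32 proteasome subunits 24 rose and 1 fell, with a median of 0.77, whereas 5 rose and 13 fell under total scaling, so that their direction depends on the scaling. The fall was lost without 2 wks replicate 3 or 4, and 4 fell with the length trend removed. The subunits *Psmb5* (2.99), *Psmb6* (2.00) and the ubiquitin receptor *Adrm1* (2.13) rose under both.

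Cholesterol synthesis went against this trend. The pathway builds cholesterol from acetyl-CoA through mevalonate and squalene and is switched on by the factor SREBP2 (*Srebf2*) when membranes are short of sterol. Of 22 genes 16 fell and 1 rose (20 fell under total scaling), with a median of -1.56, and 18 fell when the GC trend was removed. The summed level was 935, 803, 690 and 786 CPM at E18.5 and 255, 242, 360 and 337 CPM at 2 wks, so the ages did not overlap. *Hmgcs1*, the HMG-CoA synthase of an early step, went from 232, 162, 198 and 255 CPM to 55.4, 50.0, 69.7 and 61.6 CPM (-1.84 ± 0.20, edgeR adjusted p = 4.4e-06). *Sqle*, which oxidizes squalene, fell most, from 58.1, 39.6, 31.6 and 30.8 CPM to 2.78, 2.17, 7.12 and 4.91 CPM (-3.24 ± 0.45), and for both genes every library of 2 wks lay below every library of E18.5. *Idi1* (-2.76), *Cyp51* (-2.72), *Msmo1* (-2.53) and *Lss* (-2.21) of the later steps and the sterol sensor *Insig1* (-2.40) fell as well. *Srebf2* itself fell from 38.7, 77.9, 40.8 and 41.4 CPM to 22.9, 19.4, 37.8 and 34.0 CPM (-0.80 ± 0.25, edgeR adjusted p = 0.0106). The mevalonate kinase gene *Mvk* was the member that rose (0.92 ± 0.30, edgeR adjusted p = 0.0154), but its value was -0.02 under total scaling, and it did not pass the test without E18.5 replicates 3 and 4 or without 2 wks replicates 3 and 4. Without E18.5 replicate 2, 2 members rose.

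Promoters of this pathway are shown because a promoter layout is known from genes of the pathway. In it a sterol response element lies near sites for the CCAAT-binding factor NF-Y. RefSeq promoters on GRCm38.p6 were matched for 16 of the 22 genes. The letters CCAAT, read on either strand (as ATTGG on the other), lay within 250 bases before the start in 15 of them, all but *Dhcr7*, against 34.5% of all 27025 promoters and 35.9% of the 11732 promoters of tested coding genes. *Mvk* held 5 matches, the most of the 16. The sterol element letters TCACCCCA were found in *Hmgcs1* and *Srebf2* and in 1.26% of all promoters. A match describes the sequence only. Capitals mark CCAAT (or ATTGG) and TCACCCCA, none of which overlap in the stretches shown. *Hmgcs1* holds 3 CCAAT matches, but its stretch was cut to the part around the sterol element and does not show all of them. *Hmgcs1* is shown from chr13:119690170-119690226 (plus strand, 181 to 125 bases before the start), *Srebf2* from chr15:82147102-82147143 (plus, 167 to 126), *Idi1* from chr13:8885556-8885601 (plus, 50 to 5) and *Msmo1* from chr8:64733624-64733743 (minus, 165 to 46).
Hmgcs1: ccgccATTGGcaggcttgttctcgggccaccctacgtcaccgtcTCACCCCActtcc
Srebf2: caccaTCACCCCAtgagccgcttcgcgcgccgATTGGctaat
Idi1: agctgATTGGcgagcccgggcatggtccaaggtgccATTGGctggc
Msmo1: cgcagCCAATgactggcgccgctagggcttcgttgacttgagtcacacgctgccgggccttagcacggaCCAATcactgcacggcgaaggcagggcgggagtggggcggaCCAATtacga

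**Figure D4:**
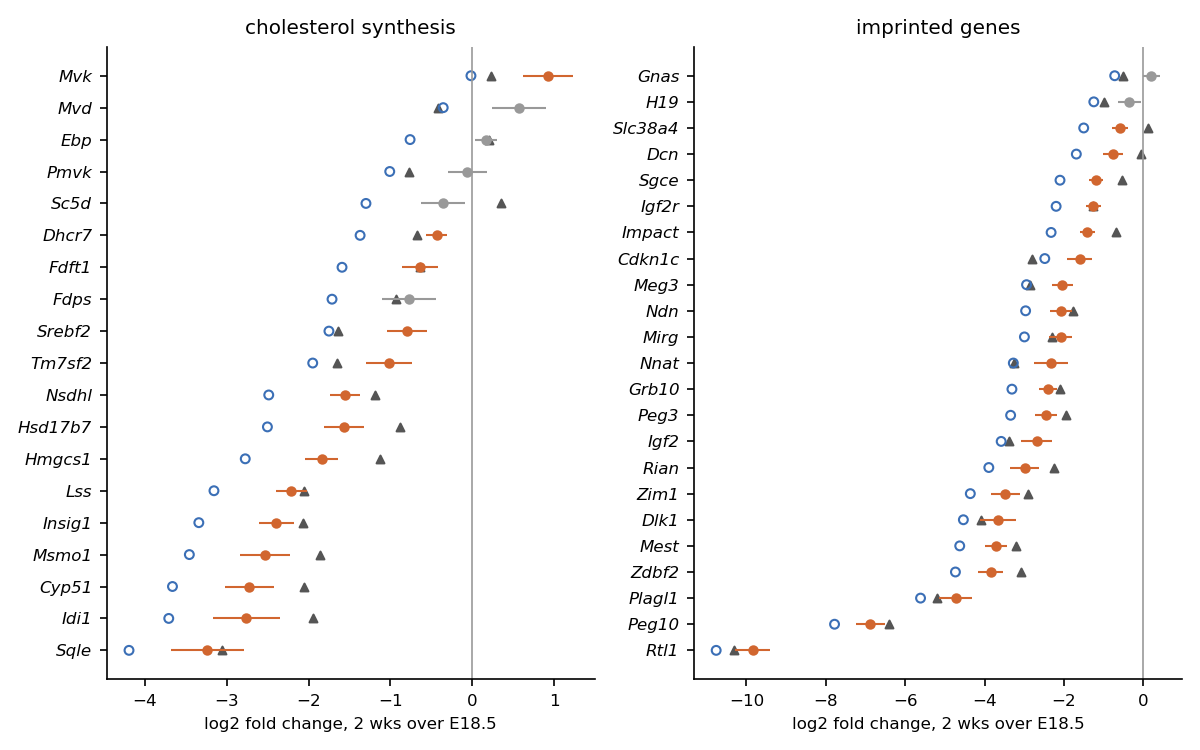
Log2 fold change of 2 wks over E18.5 (x axis) for 19 of the tested genes of cholesterol synthesis (left) and each tested imprinted gene (right), as filled circles with a bar of 1 SE (orange, past the threshold under TMM; grey, not), with the value under total scaling (open blue) and with the GC trend removed (grey triangle). Of the genes drawn, 13 of 19 cholesterol genes and 21 of 23 imprinted genes fell, and *Mvk*, which rose under TMM, lies at -0.02 under total scaling and did not pass the test with the GC trend removed.

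Other biosynthetic genes moved in the same direction less uniformly. Of 28 genes of serine, one-carbon and nucleotide synthesis 14 fell and 5 rose (23 fell under total scaling). *Psat1* of serine synthesis went from 55.4, 65.1, 67.3 and 46.9 CPM to 12.1, 11.0, 13.0 and 8.54 CPM (-2.39 ± 0.22), and the thymidylate synthase gene *Tyms*, needed for DNA synthesis, fell (-1.93 ± 0.24). Of 24 transporters of sugars, amino acids and lactate 6 rose and 8 fell under TMM, no more than the shares over all genes. Under total scaling 3 rose and 17 fell. Among glutamine and neutral amino acid carriers, *Slc38a3* rose from 1.74, 3.97, 3.67 and 4.46 CPM to 149, 129, 222 and 233 CPM (5.73 ± 0.32), and *Slc38a1* fell from 42.0, 39.1, 31.5 and 31.8 CPM to 4.78, 3.33, 3.03 and 3.10 CPM (-3.34 ± 0.29). *Slc7a5*, the carrier of leucine and other large amino acids, and *Slc1a4* fell (-2.30 and -2.62), while *Slc2a4*, the insulin-regulated glucose transporter, and *Slc16a3*, which exports lactate, rose (2.76 and 3.40).

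The machinery of translation had no single direction, and the scaling decided the counts. Of 36 genes of ribosome biogenesis 14 rose and 9 fell (3 and 24 under total scaling). The nucleolar proteins *Npm1*, at 327 to 519 CPM against 104 to 135 CPM (-1.68 ± 0.17), *Nop58* (-1.52) and *Ncl* (-0.87) fell under both. Of 79 cytosolic ribosomal protein genes 30 rose and 16 fell (6 and 41 under total scaling), and without E18.5 replicates 3 and 4 the counts were 10 and 12, without 2 wks replicates 3 and 4 they were 25 and 7, and with the trend over transcript length removed 13 and 31. With the GC trend removed 9 fell. Reads of these genes can be shared with processed pseudogenes. Of 44 initiation and elongation factors 21 rose and 7 fell (3 and 26 under total scaling), or 4 fell without 2 wks replicates 3 and 4 or with the GC trend removed, and *Eef1a2* and *Eef1a1*, described above, moved most in each direction.

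The imprinted genes formed the most uniform group among regulators of growth. Of 23 tested, 21 fell (all 23 under total scaling), with a median of -2.33. *Rtl1*, which like *Peg10* derives from a retrotransposon, went from 155, 199, 116 and 159 CPM to 0.268, 0.103, 0.233 and 0.105 CPM (-9.84 ± 0.44, edgeR adjusted p = 2.55e-09), the largest change of the list. *Mest* fell from 1427, 1102, 1064 and 996 CPM to 107, 90.8, 93.5 and 58.6 CPM (-3.71 ± 0.29), and *Dlk1*, a Notch-like membrane protein, from 294, 558, 323 and 270 CPM to 45.6, 42.4, 15.7 and 11.0 CPM (-3.66 ± 0.45). No library of 2 wks reached the level of any library of E18.5 in these genes. The group included maternally expressed growth inhibitors, such as *Grb10* (-2.41 ± 0.23), *Cdkn1c* (-1.60) and *Igf2r* (-1.26), as well as paternally expressed growth promoters. The noncoding RNAs *Meg3* (-2.04 ± 0.27) and *Rian* (-2.99 ± 0.36), which share a cluster with *Dlk1* and *Rtl1*, fell too. *H19* was the abundant exception, at 7597, 10203, 6733 and 7375 CPM against 8358, 8268, 4160 and 4163 CPM (-0.35 ± 0.29, edgeR adjusted p = 0.293), where replicates 1 and 2 of 2 wks lay within the range of E18.5. *Gnas* did not pass the test either (0.20).

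Of 21 genes of the insulin-like growth factor axis 9 fell and 3 rose (16 and 2 under total scaling), or 5 rose without E18.5 replicates 3 and 4 and 7 with the length trend removed. Both ligands and their receptor fell: *Igf1* from 397, 228, 228 and 207 CPM to 58.0, 50.4, 51.7 and 32.3 CPM (-2.46 ± 0.37), *Igf2* from 40.6 to 77.4 CPM to 4.19 to 11.6 CPM (-2.69 ± 0.40), and *Igf1r* from 51.1 to 74.8 CPM to 23.7 to 25.8 CPM (-1.37 ± 0.16). An annotated gene overlaps *Igf2*, so its level is uncertain. The binding protein genes *Igfbp6* (2.65) and *Igfbp7* (2.30) rose. Of 18 oncofetal genes, which encode RNA-binding and chromatin proteins of embryonic and tumor cells, 15 fell and 1 rose (17 fell under total scaling), with a median of -1.83, and the rise was lost without 2 wks replicates 3 and 4. *Igf2bp1*, which binds *Igf2* mRNA, fell from 24.1, 25.8, 21.8 and 17.8 CPM to 0.0839, 0.0515, 0.0411 and 0.118 CPM (-8.25 ± 0.29, edgeR adjusted p = 5.26e-10), and *Hmga2* from 7.99 to 17.1 CPM to between 0.0103 and 0.110 CPM (-7.80 ± 0.55). The related *Igf2bp2* fell too (-2.68). In the myogenic list 8 of 24 were lower and 7 higher (15 and 1 under total scaling), near the shares over all genes, or 4 lower without 2 wks replicates 3 and 4. The members that fell included the myogenic factor gene *Myf5* at 8.01 to 13.3 CPM against 2.14 to 4.10 CPM (-1.81 ± 0.27) and the fusion gene *Mymk* at 31.9 to 69.6 CPM against 8.91 to 22.1 CPM (-1.55 ± 0.34). *Nfix*, a factor of the fetal myogenic program, rose (1.99).

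Of 25 genes of the response to thyroid and steroid hormones 13 rose and 3 fell (9 and 10 under total scaling, 5 falling with the GC trend removed). *Klf9*, a target of both kinds of hormone, went from 38.7, 27.4, 25.6 and 52.2 CPM to 167, 146, 166 and 189 CPM (2.22 ± 0.22), with no overlap of the ages. The gene of the activating deiodinase *Dio2* fell (-2.40 ± 0.41). Of 19 clock genes 13 rose and 1 fell (6 and 6 under total scaling). The fall was lost without E18.5 replicate 3 or 4 or 2 wks replicate 4, and 2 fell without E18.5 replicate 2 or 2 wks replicate 1. *Nr1d1*, the repressor REV-ERB alpha, rose from 4.48, 7.996, 5.68 and 6.90 CPM to 36.1, 52.8, 119 and 127 CPM (3.74 ± 0.37), and *Bhlhe41* (3.00) and *Dbp* (2.53 ± 0.30) rose too. The hour of sampling was not given in the sources used here.

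Signalling pathways of development differed from each other. Of 41 Wnt pathway genes, which encode ligands, receptors and antagonists, 21 fell and 7 rose (29 and 2 under total scaling, 4 rising with the GC trend removed). The antagonists *Sfrp1* (28.8 to 37.7 CPM against 2.43 to 4.42 CPM, -3.29 ± 0.24) and *Dkk2* (18.8 to 39.4 CPM against 1.70 to 5.33 CPM, -2.97 ± 0.38) fell most among the better expressed members. Of 35 genes of myostatin and TGF-beta signalling 13 fell and 10 rose (23 and 4 under total scaling), near the shares over all genes. *Fst*, which encodes the myostatin inhibitor follistatin, fell (-1.66 ± 0.22), the myostatin gene *Mstn* fell from 88.9, 47.7, 47.0 and 40.3 CPM to 31.2, 30.5, 25.5 and 22.4 CPM (-1.03 ± 0.26), and the signal transducer gene *Smad3* rose (1.96 ± 0.15). In the Notch pathway 11 of 23 rose and 7 fell (3 and 12 under total scaling), but only 6 rose without E18.5 replicates 3 and 4 or with the GC trend removed. *Notch4* (2.60), *Jag2* (2.26) and *Dll4* (1.82), known from vessels, rose, and *Notch2* (-1.52) and the common effector *Rbpj* (-1.50) fell.

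Of 32 *Hox* genes, which mark position along the body and limb, 10 rose and 9 fell (3 and 19 under total scaling), near the shares over all genes. With the GC trend removed 5 rose, and 6 without 2 wks replicates 3 and 4. *Hoxc10*, known from the hindlimb, had the largest rise, from 4.95, 5.91, 3.28 and 1.69 CPM to 26.2, 31.8, 38.1 and 45.6 CPM (3.16 ± 0.33), and the annotation of *Hoxc5* overlaps it. Guidance molecules of axons and adhesion molecules fell as a group, with 32 of 44 lower and 4 higher (39 lower under total scaling, 7 higher with the length trend removed) and a median of -1.75. *Dcx*, the microtubule protein doublecortin of migrating neurons, fell from 56.8, 36.3, 29.5 and 27.6 CPM to 1.04, 0.814, 1.21 and 0.640 CPM (-5.35 ± 0.28), and *Cdh11* of mesenchyme from 51.0 to 86.4 CPM to 6.51 to 7.47 CPM (-3.42 ± 0.36). *Sema3a* (-2.54), *Robo1* (-2.16) and the matrix protein gene *Tnc* (-2.66) fell as well. Of 38 chromatin genes 17 fell and 11 rose (28 and 3 under total scaling), and the polycomb genes *Ezh2* (-1.81 ± 0.15) and *Suz12* (-1.40) and the histone deacetylase *Hdac9* (-1.94) led the falls. Among 31 antioxidant and metallothionein genes 17 rose and 4 fell (8 and 13 under total scaling, 7 falling with the length trend removed), with *Selenow*, a selenoprotein of muscle, going from 50.4, 121, 74.5 and 67.5 CPM to 741, 793, 753 and 900 CPM (3.34 ± 0.28).

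Genes of the connective tissue matrix were lower more often than higher. Of 19 interstitial collagens 9 fell and 2 rose (14 fell under total scaling, also with the GC trend removed). The 2 rises were lost without any of E18.5 replicates 1, 3 and 4 and 2 wks replicates 3 and 4, and 4 rose without E18.5 replicate 2. *Col12a1*, a collagen that decorates fibrils, fell from 437, 389, 203 and 258 CPM to 8.86, 11.0, 26.1 and 24.1 CPM (-4.20 ± 0.61), and *Col14a1* (-2.73) and *Col11a1* (-2.61) fell too, whereas *Col1a1*, at 674 to 2404 CPM and 1127 to 1665 CPM, did not pass the test. Of 24 genes of collagen processing 10 fell and 5 rose (18 fell under total scaling), or 3 rose with the GC trend removed or without any of E18.5 replicates 1 and 4 and 2 wks replicates 1, 2 and 3, and 2 without both E18.5 replicates 3 and 4. The cross-linking enzymes *Lox* (130 to 254 CPM against 19.2 to 33.4 CPM, -2.80 ± 0.42) and *Plod2* (72.8 to 155 CPM against 11.2 to 14.5 CPM, -2.94 ± 0.26) fell. Among 27 small proteoglycans and elastic fiber genes 13 fell and 4 rose (20 and 3 under total scaling), or 2 rose without 2 wks replicates 3 and 4. *Fbn2*, the fetal fibrillin, went from 155, 219, 138 and 118 CPM to 4.55, 3.66, 4.38 and 4.30 CPM (-5.22 ± 0.35), and *Ltbp4*, which stores TGF-beta in the matrix, rose (2.80 ± 0.39).

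The basement membrane is the sheet that wraps fibers and vessels. Of its 19 genes 7 rose and 8 fell (6 and 12 under total scaling), and 5 fell without 2 wks replicates 3 and 4 or with the length trend removed. The laminin beta 2 gene *Lamb2*, known from synapses and vessels, rose from 22.3, 78.5, 34.1 and 36.6 CPM to 240, 212, 370 and 388 CPM (2.82 ± 0.34), and *Hspg2* (2.07), *Lama5* (1.90) and *Col4a2* (1.79) rose, while the laminin *Lama4* (-1.05) and nidogen *Nid1* (-1.15) fell. Of 25 matrix proteases and inhibitors 10 fell and 3 rose (21 and 3 under total scaling). *Adam12*, known from fusing and regenerating muscle, fell from 59.2, 51.5, 107 and 81.5 CPM to 9.16, 9.05, 8.72 and 4.87 CPM (-3.23 ± 0.41), and the inhibitor *Timp4* rose from 2.59 to 10.8 CPM to 38.0 to 98.3 CPM (3.64 ± 0.49).

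Markers of the other cells in the muscle moved with age as well, and their part in the changes above was not tested. Endothelial markers were higher, with 15 of 19 rising (10 rose and 2 fell under total scaling) and a summed level of 580 to 819 CPM against 1641 to 1841 CPM. *Cdh5*, the cadherin of vessels, went from 72.8, 107, 110 and 119 CPM to 337, 288, 345 and 300 CPM (1.64 ± 0.20). Of 12 markers of smooth muscle and pericytes 8 rose (5 rose and 3 fell under total scaling), led by *Rgs5* of pericytes, at 64.4 to 147 CPM against 580 to 674 CPM (2.65 ± 0.22). Of 14 fibroblast and tendon markers 7 fell and 2 rose (9 fell under total scaling), with 4 rising without E18.5 replicate 2 and 1 without replicates 3 and 4 of either age. *Pdgfra* of fibroblasts and their precursors fell from 183, 137, 126 and 113 CPM to 41.4, 45.8, 29.1 and 23.1 CPM (-2.004 ± 0.31), and *Tnmd* of tendon (-2.37 ± 0.67) from 166, 107, 51.1 and 47.0 CPM to 6.16, 7.41, 32.3 and 26.0 CPM.

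Immune markers split. Of 15 macrophage markers 6 fell and 2 rose (11 fell under total scaling), or 1 rose without E18.5 replicate 1 or 4 or 2 wks replicate 2, and the summed level went from 286 to 332 CPM to 142 to 205 CPM. The members that fell included *Lyve1* at 36.4 to 48.4 CPM against 4.56 to 7.99 CPM (-2.65 ± 0.45) and *Adgre1* at 18.1 to 23.0 CPM against 2.84 to 4.98 CPM (-2.40 ± 0.41), while the complement genes *C1qa* (1.29 ± 0.35) and *C1qc* (0.93) rose. Of 11 markers of antigen presentation by MHC class II and of lymphocytes 8 rose (4 rose and 2 fell under total scaling), and *Cd74*, the class II chaperone, went from 0.652, 2.94, 3.16 and 2.05 CPM to 14.3, 17.6, 14.7 and 28.4 CPM (3.09 ± 0.41). Of 21 interferon-induced genes 10 rose and 1 fell (5 and 8 under total scaling), with *H2-K1* at 5.14 to 11.8 CPM against 33.5 to 62.7 CPM (2.25 ± 0.26), but 5 rose without 2 wks replicates 3 and 4. The fall was lost without E18.5 replicate 1 or any of 2 wks replicates 1, 2 and 4.

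Of 14 Schwann cell markers 6 rose and 4 fell (4 and 7 under total scaling). Their summed level was 273, 333, 219 and 214 CPM at E18.5 and 747, 298, 274 and 175 CPM at 2 wks, highest in replicate 1 of 2 wks. *Ngfr*, a receptor of immature Schwann cells, fell from 18.54 to 36.4 CPM to 2.52 to 4.41 CPM (-3.01 ± 0.27). Of 8 neuron markers 6 fell and 2 rose (6 fell under total scaling). Their summed level was low and overlapped, at 6.20 to 11.3 CPM at E18.5 and 7.36 to 8.29 CPM at 2 wks. With at least 10 counts required in every library 0 fell and 2 rose. The rises were lost without E18.5 replicates 3 and 4, or 1 was left without 2 wks replicates 3 and 4. Of 11 adipocyte markers 9 fell (11 under total scaling), but the summed level was 244, 197, 2559 and 4257 CPM at E18.5 and 466 to 525 CPM at 2 wks, and without E18.5 replicates 3 and 4 the counts were 3 higher and 3 lower. Of 9 red blood cell markers 4 fell (7 under total scaling), with sums of 242 to 1027 CPM and 146 to 756 CPM that overlapped, and 2 fell without replicates 3 and 4 of either age. Of 12 cartilage and bone markers 6 fell and 2 rose (10 and 2 under total scaling), and 3 fell without E18.5 replicate 2 or 2 wks replicate 1. Their sums overlapped, at 33.6 to 169 CPM at E18.5 and 40.7 to 57.7 CPM at 2 wks. *Alpl*, the tissue-nonspecific alkaline phosphatase, rose from 1.37 to 3.07 CPM to 20.6 to 39.1 CPM (3.96 ± 0.28). Of 7 epidermis markers 5 fell (7 under total scaling), and 3 fell without 2 wks replicates 3 and 4. Y-linked genes were expressed in all 8 libraries, with *Ddx3y* at 49.6 to 94.2 CPM, and of 5 sex-linked genes 2 fell (5 under total scaling), and at most 1 fell without any library other than E18.5 replicate 2.

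**Figure D5:**
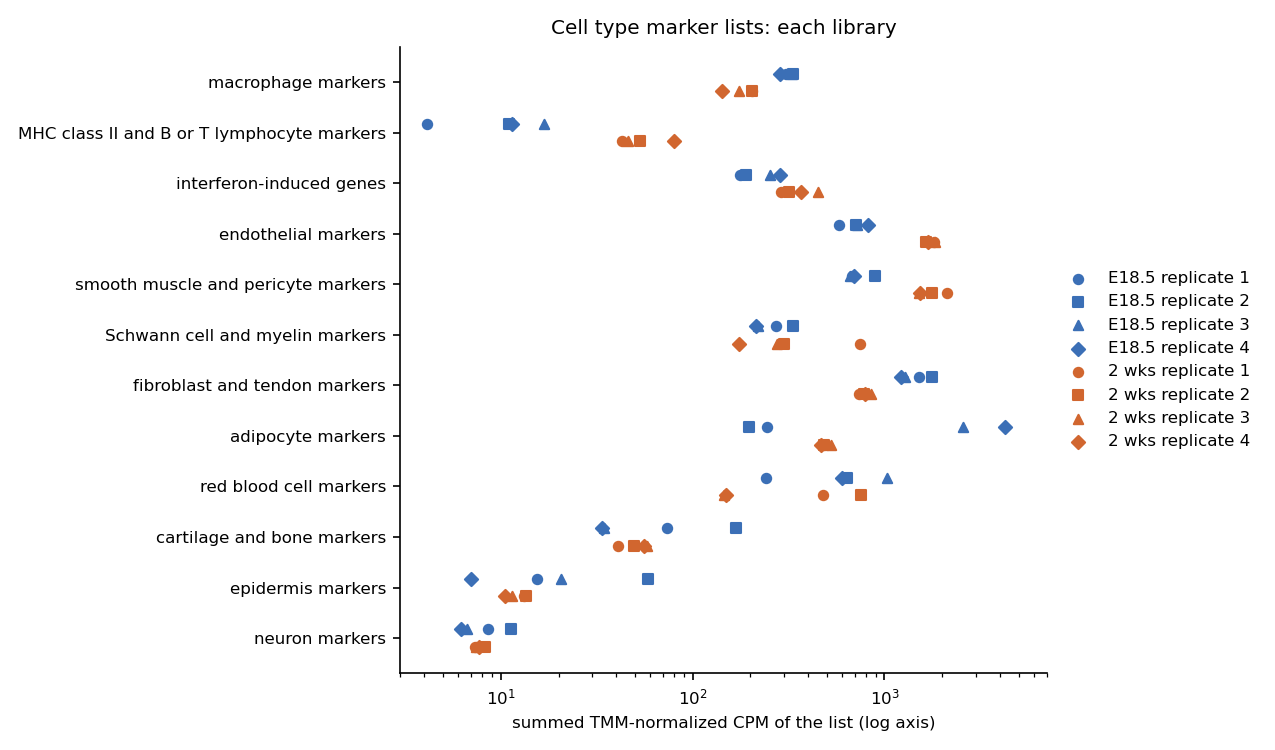
Summed TMM-normalized CPM (log axis) of 12 lists of cell type markers in each E18.5 library (blue) and each 2 wks library (orange), with a symbol for each replicate number. Endothelial and smooth muscle sums are higher in every library of 2 wks, and the adipocyte sums of E18.5 replicates 3 and 4 (2559 and 4257 CPM) lie far above those of replicates 1 and 2 (244 and 197 CPM).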

How the data were processed

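RNA was extracted with TRI Reagent, and TruSeq Stranded mRNA libraries were sequenced on a HiSeq4000. The authors deposited raw counts of reads per gene in 1 table, with no normalization. The submitters' processing notes name bcl2fastq 2.17.1.14, cutadapt 1.10, STAR 2.5.3a, HTSeq 0.6.1p1 and mm10, whereas the study's methods name another genome build, so gene coordinates are not printed. The strand setting and annotation of the counting are not given in the sources used here. Of 55450 gene IDs, 51477 matched a GENCODE vM39 name, and the unnamed took 0.0294% to 0.0612% of the counts.

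Genes were filtered with filterByExpr, which removed 36174, and the 12 libraries were fitted by age with edgeR 4.0.16 (R 4.3.3, TMM, quasi-likelihood test, Benjamini-Hochberg threshold of 0.05). The biological coefficient of variation was 0.279. No 2 libraries agreed within sampling noise. P-values set the difference between ages against the spread between libraries of an age, taken as separate mice as labelled. A list was described by its counts and median, without a set test. The pair ratios used a pseudocount of 0.5 counts. Scripts were tested on simulated data.

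Members, lists and pairs were chosen with earlier results of these data known. Genes were named by rule: the 12 largest rises and falls among protein-coding genes of mean log2 CPM 5 or more, no overlap of the ages and outside the myosin, triad, endocytosis, splicing and cell cycle lists, the largest 3 in each direction of each list of mean log2 CPM 3 or more, both genes of each pair, and other list members with their values. Library markers *Adipoq*, *Ucp1* and *Col2a1* were named after their values were seen if outside this rule. Alternatives were total counts, upper-quartile scaling, TMM without the 20 most abundant and the mitochondrial genes, removal of each library's trend over GC content or length, a minimum of 10 counts per library, no filter, only the 8 libraries, a replicate block, a log2 fold change beyond 1, DESeq2 1.42.0 and each library left out. Leaving out E18.5 replicates 3 and 4, or 2 wks replicates 3 and 4, was chosen after seeing the data. Some genes of the lists are not reported here by name or drawn, but are counted in their lists.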

Additional observations from a re-analysis of the deposited data

Results flagged for a closer look

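Of 434 sets of 4 libraries, 1 for each named gene at each age, 34 had a library whose gap to its nearest neighbour relative to the range was above Dixon's 95% critical value. Chance flags about 1 in 20 such sets, and the sets include genes named because libraries stood apart (*Col2a1* and *Ucp1*), so that the number is not to be read against chance. In 2 wks replicate 1, lower than the nearest other library, stood *Asb14* (34.4 CPM against 43.6). Again in 2 wks replicate 1, higher than the nearest other library, stood *Lmna* (110 CPM against 92.1). In 2 wks replicate 2, higher than the nearest other library, stood *Ucp1* (11.6 CPM against 0.822). In 2 wks replicate 3, lower than the nearest other library, stood *Mlycd* (65.6 CPM against 88.9). In replicate 3 of 2 wks, higher than the nearest other library, stood *Mybpc2* (7489 CPM against 5882) and *Tyms* (10.4 CPM against 5.41). In 2 wks replicate 4, lower than the nearest other library, stood *Adam12* (4.87 CPM against 8.72). In replicate 4 of 2 wks, higher than the nearest other library, stood *Cox6a2* (765 CPM against 508), *Ezh1* (40.3 CPM against 36.0), *Ndufs7* (371 CPM against 245), *Ppara* (7.89 CPM against 3.31), *Tnnc2* (10790 CPM against 10346) and *Uqcrq* (498 CPM against 292). In E18.5 replicate 1, lower than the nearest other library, stood *Mlycd* (3.76 CPM against 8.97). In E18.5 replicate 1, higher than the nearest other library, stood *Fgf7* (27.2 CPM against 16.1), *Igf1* (397 CPM against 228), *Mstn* (88.9 CPM against 47.7), *Nrk* (1275 CPM against 684), *Plod2* (155 CPM against 83.7) and *Rbpj* (101 CPM against 73.0). In E18.5 replicate 2, higher than the nearest other library, stood *Cacna1h* (25.9 CPM against 9.79), *Col2a1* (73.0 CPM against 7.38), *Cox6a2* (24.8 CPM against 9.67), *Igf2r* (354 CPM against 263), *Igfbp6* (8.34 CPM against 3.25), *Lmna* (97.3 CPM against 34.4), *Meg3* (3374 CPM against 2370), *Nfix* (52.9 CPM against 31.9), *Pgam2* (413 CPM against 203), *Srebf2* (77.9 CPM against 41.4) and *Tnnt1* (180 CPM against 109). In E18.5 replicate 3, higher than the nearest other library, stood *Fgf10* (23.4 CPM against 8.95). In E18.5 replicate 4, higher than the nearest other library, stood *Hk2* (143 CPM against 96.9) and *Pdk4* (328 CPM against 66.7). The part that cartilage, skin or adipocyte RNA of these libraries has in these values was not tested.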

How the results depend on the processing

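The totals of 12668 changed, 6074 higher and 6594 lower genes stayed within 1.5 times under the alternatives except these. Under total counts 2552 were higher and 11917 lower, which took the share of calls that were higher from 47.9% to 17.6% (51.8% with the GC trend removed). For a log2 fold change beyond 1 there were 5507 calls, 2777 higher and 2730 lower. Leaving out libraries gave 10457 to 12932 calls, 5155 to 6269 higher and 5302 to 6663 lower. Of the 53 lists, 27 had more members higher than lower, 15 under total counts and 23 to 30 without libraries, and 29 pairs shifted whichever single library was left out and with a pseudocount of 5 (other alternatives were not run on the pair ratios). Of 2226 list counts under alternatives 267 moved by over 1.5 times. With the replicate block 12470 genes were called (6076 higher and 6394 lower). Deviations of same-numbered libraries from their age means had correlations of 0.016, -0.11, -0.054 and 0.19. Only for replicate 4 did the same number give the highest correlation between the ages. The numbers were not used to pair mice in the main fit, and these values cannot exclude a shared batch. Of 217 named genes 177 kept their side of the threshold in every alternative, and their direction where they passed it. In all but the fold threshold 190 did so. Signs were not compared where a gene passed in neither the main fit nor the alternative. Such genes, *Col1a1* among them (0.09, and -0.85 under total counts), are left out of the changes of sign given next. These changed sign: under total counts *Cox6a1* (-0.91), *Dmd* (-0.87), *Ezh1* (-0.48), *Gnas* (-0.72), *Hk1* (-0.73), *Hoxc5* (-0.53), *Ldhb* (-0.061), *Mvk* (-0.017) and *Ndufb2* (-0.55), with the GC trend removed *Cox6a1* (-1.06), *Gnas* (-0.50), *Hk1* (-0.35) and *Lmna* (-0.11), with the length trend removed *Cox6a1* (-0.66), and without E18.5 replicates 3 and 4 *Ucp1* (4.52). The cause of these changes was not tested.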

Other observations

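Mast cell genes other than *Cpa3* were chosen after its value was seen. Mast cells are tissue immune cells loaded with proteases and histamine. The chymase *Cma1* went from 142, 201, 252 and 109 CPM at E18.5 to 6.68, 8.54, 3.83 and 2.53 CPM at 2 wks (log2 fold change -5.03 ± 0.49, edgeR adjusted p = 1.7e-06), and *Hdc*, which makes histamine, from 45.9, 111, 78.3 and 44.0 CPM to 2.68, 1.35, 0.863 and 1.03 CPM (-5.57 ± 0.43). The proteases *Tpsb2* (-3.06) and *Mcpt4* (-2.80), the IgE receptor subunit *Ms4a2* (-3.35) and, less, the receptor *Kit* (-0.91) fell, while the IgE receptor subunit *Fcer1a* did not pass the test (-0.04, edgeR adjusted p = 0.954).

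Families of genes with a shared symbol were looked through after the values were seen, 98 families with at least 15 tested coding genes. The *Asb* family of ubiquitin ligase adaptors had 12 of 16 members higher and 3 lower (11 and 4 under total scaling), with *Asb14* going from 1.12 to 1.55 CPM to 34.4, 45.2, 44.8 and 43.6 CPM (5.02 ± 0.17) and *Asb11* from 4.13 to 7.39 CPM to 33.3, 38.8, 94.7 and 110 CPM (3.47). Genes for proteins of the mitochondrial ribosome were higher, 46 of 48 *Mrpl* and 25 of 29 *Mrps* genes (23 higher and 6 lower, and 10 and 6, under total scaling). Cadherins were lower in 16 of 23 and higher in 3 (17 and 3 under total scaling), the latter including *Cdh5* (1.64) and *Cdh13* (1.68). Fibroblast growth factors were lower in 10 of 15 and higher in 2 (13 and 2 under total scaling). *Fgf10*, a growth factor of limb and fat mesenchyme, fell from 8.95, 7.06, 23.4 and 8.81 CPM to 0.218, 0.278, 0.137 and 0.0915 CPM (-6.03 ± 0.47), and *Fgf7* fell (-3.01).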
